A study of Mus musculus with 36 samples.

Results

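Wnt ligands are secreted lipid-modified proteins that bind Frizzled receptors and their LRP co-receptors, after which beta-catenin escapes degradation and acts in the nucleus with factors of the TCF/LEF family. Secreted Frizzled-related proteins (sFRPs) carry a Frizzled-like domain and can bind Wnt ligands outside the cell. Wnt10b is known as a ligand that holds pre-adipocytes back from differentiation. The genes described here were 10 of the 55536 genes listed per library. They comprised the ligand genes *Wnt5a*, *Wnt6*, *Wnt10a* and *Wnt10b*, the sFRP genes *Sfrp1*, *Sfrp2*, *Sfrp4* and *Sfrp5*, the Dickkopf family gene *Dkk3*, and *Tcf7l2*, which codes for a nuclear partner of beta-catenin. The set was chosen by its levels over days, with *Sfrp2* named for its large decrease from day 0, so its differences from day 0 are given as a description and carry no test.

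RNA had been sequenced from 36 libraries of mouse brown pre-adipocyte lines. All lines descended from a single clonal parent and lacked endogenous *Rxra* (*Rxra*-/-) after Cas9 editing, which gave 2 monoclonal lines, clones 48 and 66. A retrovirus with hygromycin selection restored RXRα as the wild-type protein (*Rxra*WT) or with the S22A substitution (*Rxra*SA), and cells were harvested at confluence (day 0) and at days 2 and 6 of differentiation, with 3 libraries per clone, genotype and day. All cells received insulin and triiodothyronine, and dexamethasone, isobutylmethylxanthine and indomethacin were present from day 0 to day 2 alone. No line with intact *Rxra* or without re-expression was analysed here. Clone 48 was sequenced in pool 1 and clone 66 in pool 2, so clone and pool cannot be told apart.

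Total counts per library lay between 11351078 and 24349263. *Rxra* itself was measured at 92.6 to 712 CPM across all libraries, where CPM are counts divided by the library size that edgeR's TMM factors give. The adipocyte markers summed to a median of 742 CPM at day 0 and 12230 CPM at day 6, with 7 of 7 above 1 CPM in the median library of day 6. The defining brown adipocyte markers were at or near 0: *Ucp1*, the uncoupling protein of brown fat, reached at most 0.307 CPM and *Cidea* at most 1.66 CPM at day 6, and of 5 brown markers *Ppargc1a* alone had a median above 1 CPM. The 5 pre-adipocyte markers summed to 255 to 465 CPM at day 0, 33.7 to 104 CPM at day 2 and 42.0 to 168 CPM at day 6. From day 2 to day 6 they did not move together. Medians rose for *Pdgfrb* (41.1 to 63.1 CPM) and *Cd34* (0.220 to 0.360 CPM). They fell for *Pdgfra* (26.7 to 20.0 CPM) and *Ly6a* (3.01 to 1.32 CPM). *Dlk1* had no count in 33 libraries. The 4 smooth muscle markers summed to 128 to 438 CPM at day 0, 3.09 to 6.51 CPM at day 2 and 18.4 to 47.1 CPM at day 6, and did not move together. *Acta2* had medians of 289.6, 1.35 and 3.13 CPM over the 3 days and carried the sum at day 0, whereas *Myh11* went the other way, with medians of 1.34, 2.34 and 21.7 CPM. *Tagln* and *Cnn1* had medians of at most 1.37 CPM. The 4 skeletal myoblast markers summed to medians of 2.52, 0.709 and 20.7 CPM, nearly all of it *Des*, and *Myod1* had no count in any library. Endothelial markers never summed above 0.995 CPM, and macrophage markers lay between 2.77 and 11.5 CPM, nearly all of it *Cd68*. Fewer cells of a type and less RNA per cell cannot be told apart in such samples, and the part of these marker changes in the results below was not tested.

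*Sfrp2* was by far the most abundant of the 10 genes at day 0, and *Wnt10b* was the only one of the 4 ligand genes with more than 8 counts in any library. The stretches of 250 bases before the RefSeq start sites of these 2 genes (GRCm38.p6) follow. They are shown because both genes were higher at day 0 than on the later days. The *Sfrp2* stretch is chr3:83766071-83766320 on the plus strand and the *Wnt10b* stretch is chr15:98778151-98778400 on the minus strand, both written 5′ to 3′ with motif matches in capitals.
Sfrp2: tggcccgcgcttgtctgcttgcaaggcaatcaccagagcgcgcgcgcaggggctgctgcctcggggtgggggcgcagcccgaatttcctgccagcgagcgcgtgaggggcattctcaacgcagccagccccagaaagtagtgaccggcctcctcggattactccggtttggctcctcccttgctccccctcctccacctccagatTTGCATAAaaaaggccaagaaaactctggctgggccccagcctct
Wnt10b: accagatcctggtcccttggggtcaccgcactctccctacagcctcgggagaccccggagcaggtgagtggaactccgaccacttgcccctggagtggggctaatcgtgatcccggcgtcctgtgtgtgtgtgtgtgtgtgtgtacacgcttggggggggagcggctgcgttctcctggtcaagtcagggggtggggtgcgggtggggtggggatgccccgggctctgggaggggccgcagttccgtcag
Both strands of the 300 bases that reach 50 bases past the start were searched for CTTTGA (the TCF/LEF core), AGGTCA (a nuclear receptor half-site), TTGCNNAA (a C/EBP-type site) and TATAAA (the TATA box). The *Sfrp2* window held 1 match, TTGCNNAA beginning 45 bases before the start and overlapping no other match, and the *Wnt10b* window held none. Of all 32851 promoters in the table, 10.8% held TTGCNNAA, 16.0% CTTTGA, 16.3% AGGTCA and 13.6% TATAAA. The table held promoters for 5 of the 10 genes.

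The 4 ligand genes were sparsely counted. *Wnt5a* (chromosome 14, 28504750 to 28527448), a ligand best known for signalling independent of beta-catenin, had no count in any of the 36 libraries. The limit that a count of 0 allows (3 counts) was 0.00454 CPM over all libraries together and between 0.123 and 0.264 CPM in a single library, counting error only. Its exons share 358 bases with the antisense gene *Gm2670*, which also had no count. *Wnt6* (chromosome 1, 74771892 to 74785322) had 6 counts in all, spread over 5 libraries. *Wnt10a*, its neighbour on chromosome 1 (74791516 to 74804179), had 25 counts in all, of which 20 came from clone 66 at day 0.

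*Wnt10b* (chromosome 15, 98770712 to 98778150, minus strand) was detected in every library of day 0, with 11 to 92 counts. At day 0 its level was 0.892, 1.88 and 3.97 CPM in the lowest, median and highest of 12 libraries. At day 2 it was between 0 and 0.112 CPM (at most 2 counts) and at day 6 between 0 and 0.229 CPM (at most 4 counts). The lowest library of day 0 stood above every library of days 2 and 6. Summed over 12 libraries a day, 546 counts at day 0 compared with 10 at day 2, a ratio of 47.0 per unit of depth (95% exact counting interval 25.4 to 98.6), and with 30 at day 6, a ratio of 16.9 (11.7 to 25.2).

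*Sfrp2* (ENSMUSG00000027996.13, chromosome 3, 83766321 to 83774316, plus strand) had 5194 to 16126 counts per library at day 0. In clone 48 at day 0 its level was 421, 638 and 825 CPM in the lowest, median and highest of 6 libraries. In clone 66 at day 0 it was 278, 560 and 684 CPM. The clones overlapped widely at day 0, and per kilobase of exon the mean of 261 CPM ranked 105th of the 32912 genes with a count. At day 2 the level was 2.93, 6.92 and 11.96 CPM in clone 48 and 1.501, 2.11 and 2.73 CPM in clone 66. At day 6 it was 9.37, 12.4 and 25.1 CPM in clone 48 and 2.37, 3.11 and 5.22 CPM in clone 66. On both later days the lowest clone 48 library was above the highest clone 66 library, and every library of days 2 and 6 was below every library of day 0. The fitted log2 fold change against day 0 was -7.18 ± 0.33 (SE) at day 2, or 145-fold lower, and -6.24 ± 0.32 at day 6, or 75.4-fold lower. Within clones it was -6.43 (clone 48) and -7.81 (clone 66) at day 2 and -5.29 and -7.13 at day 6. In the comparison of day 2 with day 0, 37.5% of the 16723 genes tested were called lower and 35.8% higher at an adjusted p-value under 0.05, and for day 6 the shares were 35.4% and 32.9%, so that a call by itself was common. The last exon of *Sfrp2* shares 347 bases with the antisense gene *Gm26771*, which had at most 33 counts in a library, and the counting did not use the strand.

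**Figure D1:**
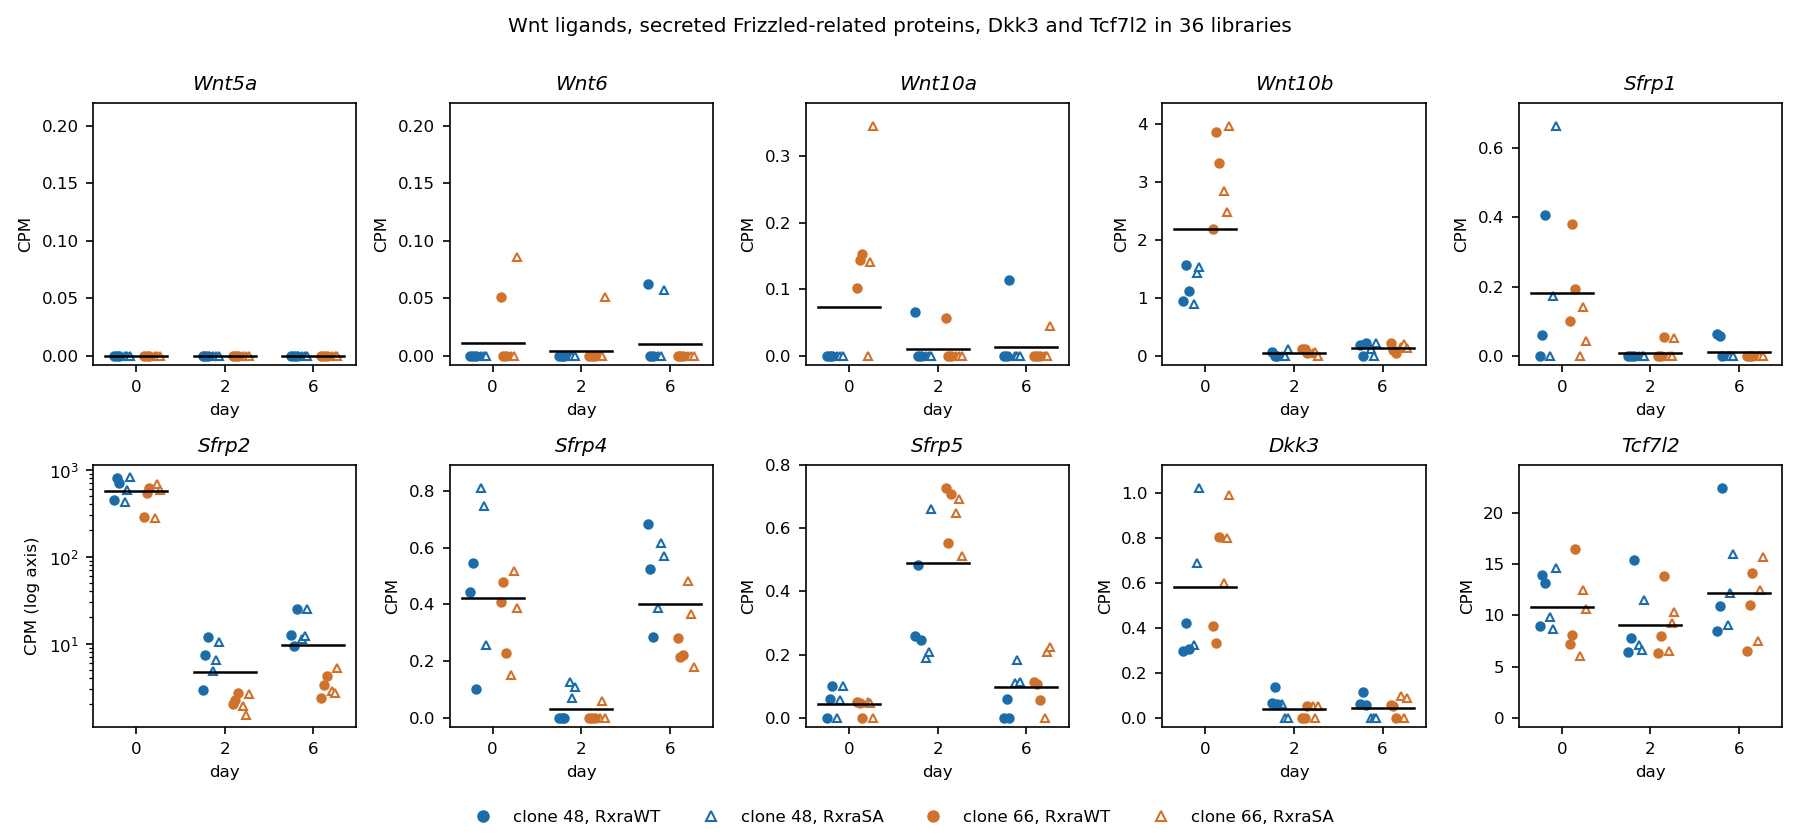
CPM of the 10 genes in each of 36 libraries (y axis, log scale for *Sfrp2* and linear for the others) by day (x axis), with clone by colour, genotype by symbol and a line at the mean of the 12 libraries of a day. *Sfrp2* lay between 278 and 825 CPM at day 0 and at most at 25.1 CPM afterwards, while *Sfrp5* was highest at day 2 and *Tcf7l2* overlapped between days.

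The other sFRP genes followed other courses over the days, all at low levels. *Sfrp1* (chromosome 8, 23411502 to 23449632) had 44 counts over the 12 libraries of day 0, at most 13 in a library and none in 3, and 2 counts over the libraries of each later day. *Sfrp4* (chromosome 13, 19623104 to 19632994) had 2 to 13 counts per library at day 0, 0 to 2 at day 2 and 4 to 11 at day 6. Its level was 0.102, 0.426 and 0.810 CPM in the lowest, median and highest libraries of day 0, and 0.178, 0.377 and 0.684 CPM at day 6. At day 2, 8 of 12 libraries had no count and the highest reached 0.127 CPM, below every library of day 6. *Sfrp5* (chromosome 19, 42197971 to 42202252, minus strand) had its highest values at day 2. It had 0 to 2 counts per library at day 0, 3 to 13 at day 2 and 0 to 5 at day 6. Every library of day 2 (0.190 to 0.728 CPM) was above every library of day 0, whereas days 2 and 6 overlapped. *Sfrp2* made up 99.8% to 99.9% of the counts of the 4 sFRP genes in each library of day 0, and a median of 87.1% at day 2 and 93.7% at day 6.

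*Dkk3* (chromosome 7, 112116017 to 112159057, minus strand), a divergent member of the Dickkopf family of secreted Wnt modulators, had 4 to 23 counts in the libraries of day 0 and 0 to 2 afterwards. Its level was 0.296 to 1.02 CPM at day 0 and at most 0.138 CPM at day 2 and 0.116 CPM at day 6, without overlap. *Tcf7l2* (chromosome 19, 55741820 to 55933654, plus strand) was counted 95 to 429 times in each library. It was 6.06, 10.3 and 16.5 CPM in the lowest, median and highest libraries of day 0, 6.33, 7.89 and 15.4 CPM at day 2, and 6.55, 11.6 and 22.5 CPM at day 6. The 3 days overlapped almost entirely. Per kilobase of exon *Tcf7l2* averaged 1.24 CPM at day 0, against 261 CPM for *Sfrp2*, but at day 2 the means were 1.04 and 2.20 CPM.

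Which genes changed between days 2 and 6, after the inducers were withdrawn, was examined by edgeR (quasi-likelihood test). This comparison shares its day 2 and day 6 libraries with the comparisons against day 0 by which the set was chosen. Of the 10 genes 5 passed the filter on low counts, *Wnt10b*, *Sfrp2*, *Sfrp4*, *Dkk3* and *Tcf7l2*. *Wnt10b* and *Dkk3* passed it through their day 0 libraries, where they were highest, *Dkk3* mainly through those of *Rxra*SA. *Sfrp4* passed it through its libraries of days 0 and 6. The values of *Sfrp4* and *Wnt10b* are therefore given from a fit without that filter. In the filtered fit 31.9% of genes were called higher and 30.1% lower. *Sfrp2* rose by 0.94 ± 0.28 (adjusted p = 0.00391), and stayed below its level of day 0 in all libraries. Within clones the *Sfrp2* change was 1.14 (adjusted p = 0.0115) in clone 48 and 0.68 (adjusted p = 0.0569) in clone 66. *Dkk3* differed by 0.19 ± 0.59 (adjusted p = 0.797). *Tcf7l2* differed by 0.42 ± 0.19 (adjusted p = 0.0561), and with same-numbered libraries of a clone as blocks by 0.41 ± 0.10 (adjusted p = 0.000508). It passed in 6 of 18 alternative fits, that one included, with adjusted p-values of 0.000508 to 0.379 over all of them. In the fit of all 36853 genes with a count, 17.4% were called higher and 15.0% lower between days 2 and 6. There *Sfrp4* rose by 4.25 ± 0.51 on the log2 scale (adjusted p = 3.54e-10). The 6 *Rxra*WT libraries of day 2 had no *Sfrp4* count, so the size of this log2 change is uncertain. Its summed counts gave a ratio of 13.3 (95% exact counting interval 5.87 to 37.3). *Wnt10b* differed by 1.42 ± 0.48 (adjusted p = 0.0164), from 10 to 30 counts over the 12 libraries, a ratio of 2.79 (1.33 to 6.39). In fits of each clone alone, which used the filter on low counts, *Wnt10b* passed in neither (adjusted p = 0.101 and 0.0809). *Sfrp5*, which did not pass the filter, fell by 2.38 (adjusted p = 4.23e-08).

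Whether the phosphorylation site of RXRα affected these genes was tested by comparing *Rxra*SA with *Rxra*WT on each day. None of the 5 genes that passed the filter was called on any day or for a change between days, by edgeR or by DESeq2. *Wnt6*, *Wnt10a*, *Sfrp1* and *Sfrp5* were not called either in the fit of all genes with a count. The background was the same, with 0.0% of 16723 genes called by edgeR on each day. At an unadjusted p-value under 0.05 there were 139, 162 and 125 genes at days 0, 2 and 6. At day 0 *Sfrp2* averaged 562 ± 184 CPM (SD, n = 6) with *Rxra*WT and 562 ± 193 CPM with *Rxra*SA. The difference in log2 was 0.05 (95% interval -0.64 to 0.74) at day 0, -0.09 (-0.89 to 0.71) at day 2 and 0.07 (-0.67 to 0.81) at day 6. These intervals come from the fit without pairing, where the spread between replicate numbers counts as error, and in it leave room for a change of over 1.5-fold either way. No interval is given here for the fit with pairs. In the 6 same-numbered pairs of a day, *Rxra*SA was above *Rxra*WT in 2 pairs at day 0, 1 at day 2 and 4 at day 6, with ratios between 0.679 and 1.64. *Tcf7l2* averaged 11.3 ± 3.73 CPM with *Rxra*WT against 10.4 ± 2.98 CPM with *Rxra*SA at day 0 (SD, n = 6). The means were 9.64 ± 3.97 and 8.55 ± 2.13 CPM at day 2, and 12.3 ± 5.62 and 12.2 ± 3.44 CPM at day 6. Every one of these *Tcf7l2* differences was within the spread of its groups. *Dkk3* at day 0 averaged 0.429 ± 0.192 CPM with *Rxra*WT against 0.738 ± 0.262 CPM with *Rxra*SA (SD, n = 6), and was higher in *Rxra*SA in 6 of 6 pairs. Its log2 difference of 0.79 ± 0.31 had an adjusted p-value of 1 in the edgeR fit. *Dkk3* passed the filter on low counts mainly through *Rxra*SA libraries of day 0. This difference, its pairs and its p-values are therefore given as a description only. *Sfrp4* at day 2 had no count in the 6 *Rxra*WT libraries and 6 counts over 4 of the *Rxra*SA libraries (adjusted p = 1), which is too few to show a difference. Its unadjusted p-value (0.00962) and that of *Dkk3* at day 0 (0.0170) were the only ones under 0.05 among the 5 genes on the 3 days.

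**Figure D2:**
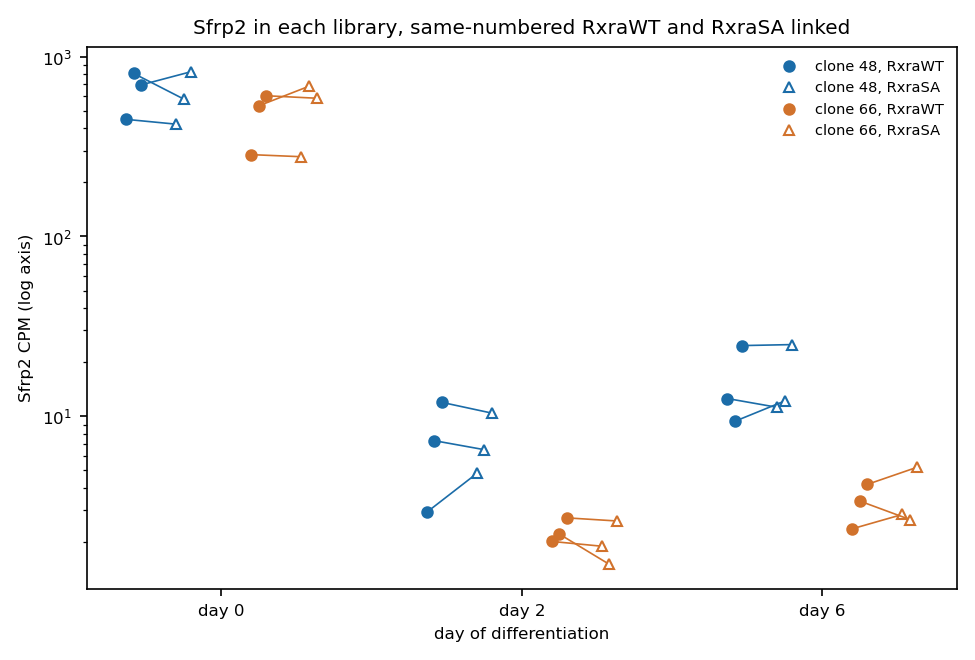
*Sfrp2* in CPM (y axis, log scale) in each library by day (x axis), with a line joining each same-numbered pair of *Rxra*WT and *Rxra*SA libraries. Lines ran up and down within each day, and at days 2 and 6 all 6 clone 48 libraries were above all 6 clone 66 libraries.

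The clones were then compared. The decrease for which *Sfrp2* was named is one over days. The genes were chosen with earlier results of these data known, so this contrast may not be independent of the choice. *Sfrp2* was lower in clone 66 than in clone 48 at day 2, by a log2 difference of -1.76 ± 0.35 (3.39-fold, adjusted p = 0.000244), and at day 6, by -2.20 ± 0.33 (4.59-fold, adjusted p = 7.56e-06). At day 0 the difference was -0.35 ± 0.29 (adjusted p = 0.446). Of all genes tested, 12.6% were called higher and 11.1% lower in clone 66 at day 0. The shares were 14.5% higher with 15.5% lower at day 2 and 13.4% higher with 12.8% lower at day 6. The change of *Sfrp2* from day 0 to day 6 differed between clones by -1.85 ± 0.44 (adjusted p = 0.0109, background 3.85%). Without replicate 2 of clone 66 it differed by -1.59 (adjusted p = 0.142). From day 0 to day 2 the clones differed by -1.42 ± 0.45 (adjusted p = 0.0561, background 6.84%), and with same-numbered libraries as blocks by -1.30 ± 0.27 (adjusted p = 0.00118). From day 2 to day 6 the difference was -0.44 ± 0.48 (adjusted p = 0.732, background 6.18%).

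*Wnt10b* differed between clones in the other direction and on another day. At day 0 it was 0.892, 1.28 and 1.58 CPM in the lowest, median and highest of 6 clone 48 libraries and 2.19, 3.10 and 3.97 CPM in clone 66, without overlap. The log2 difference was 1.31 ± 0.25 (2.48-fold, adjusted p = 0.000198). These tests counted the *Rxra*WT and *Rxra*SA library of a replicate number separately. With each same-numbered pair summed to 1 sample, the adjusted p-value was 0.0138 for *Wnt10b* at day 0, and for *Sfrp2* 0.00960 at day 2 and 0.00199 at day 6. *Wnt10a* also had more counts in clone 66 at day 0, with 20 counts in 6 libraries against none in 6 libraries of clone 48, or at least 5.38-fold higher against 3 counts over the group. In the fit of all genes with a count its adjusted p-value was 0.00442, where 5.12% of genes were called higher. *Sfrp4* at day 6 was 0.511 ± 0.149 CPM in clone 48 and 0.291 ± 0.115 CPM in clone 66 (SD, n = 6), a log2 difference of -0.82 ± 0.38 that did not pass (adjusted p = 0.117). *Tcf7l2* averaged 11.6 and 10.2 CPM at day 0, 9.15 and 9.04 CPM at day 2, and 13.2 and 11.2 CPM at day 6 in clones 48 and 66. No difference between clones in the effect of *Rxra*SA was called for any of the 5 genes that passed the filter (0 of 16723 genes).

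Much of the spread of *Tcf7l2* followed the replicate number. Averaged over the genotypes, the libraries numbered 3 were the highest and those numbered 1 the lowest in 6 of 6 combinations of clone and day, and the ratio of the former to the latter was 1.48 to 2.19. For *Sfrp2* the libraries numbered 3 were the highest in 5 of 6 combinations and those numbered 1 the lowest in 4, with ratios of 1.37 to 2.89. The log2 levels of *Sfrp2* and *Tcf7l2* had a Pearson correlation of 0.85 over the 12 libraries of day 0, 0.38 at day 2 and 0.53 at day 6, in libraries that share replicate numbers and depth.

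**Figure D3:**
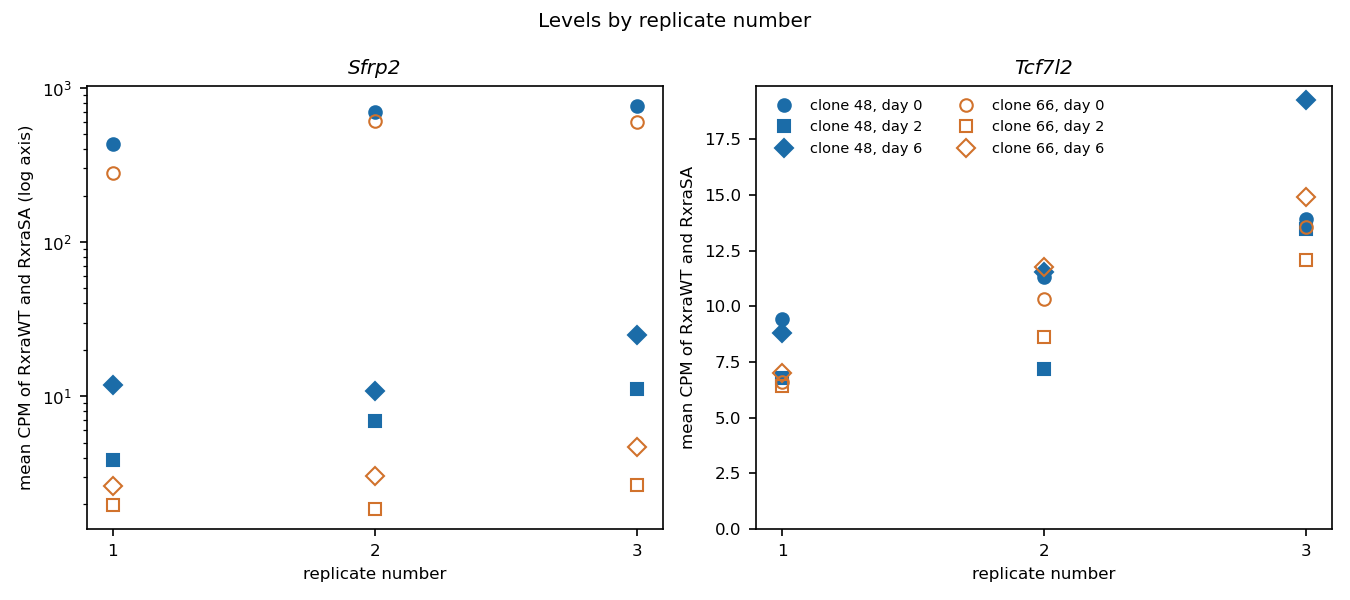
Mean CPM of the *Rxra*WT and *Rxra*SA library (y axis, log scale for *Sfrp2*) by replicate number (x axis), with clone by colour and day by symbol. The *Tcf7l2* values of replicate 3 were 1.48 to 2.19 times those of replicate 1 in all 6 combinations of clone and day.

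The genes whose log2 level followed *Sfrp2* most closely over the 36 libraries were *Pcbp4* (Pearson r = 0.986), *Ass1* (0.983), *Osr1* (0.981), *Fam20a* (0.980) and *Prss23* (0.979). The libraries share days, clones and depth, so these values mainly order genes by the contrast of day 0 with the later days. *Ass1*, which codes for argininosuccinate synthase, had medians of 84.8, 11.03 and 16.4 CPM at days 0, 2 and 6. *Osr1*, a transcription factor gene of mesenchymal progenitors, had medians of 67.2, 3.32 and 4.20 CPM. All 5 were lower at day 2 than at day 0 by a smaller ratio than *Sfrp2*, whose medians were 584, 2.83 and 7.29 CPM.

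The remaining Wnt pathway was represented by a list of 87 genes in 9 roles, of which 53 passed the filter. From day 0 to day 2, 15 rose and 27 fell, and from day 0 to day 6, 18 rose and 22 fell. From day 2 to day 6, 15 rose and 13 fell. At day 2 that was 28.3% higher and 50.9% lower, against 35.8% and 37.5% of all genes tested, and at day 6 34.0% and 41.5%, against 32.9% and 35.4%. Between days 2 and 6 it was 28.3% and 24.5%, against 31.9% and 30.1%. No test set the list against the other genes. The median log2 change was -0.20, -0.06 and 0.09 in these comparisons, against -0.02, -0.03 and 0.01 over all genes tested. Scaling by library size alone moved the median of all genes to -0.27 at day 2 and -0.22 at day 6 against day 0, where 33.6% and 34.9% of all called genes were higher, against 48.9% and 48.2% with TMM.

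Of the 15 other Wnt ligand genes only *Wnt2b* passed the filter, and it was named after its values were seen. It was counted 9 to 27 times in every library and was not called between any days, with log2 differences of 0.15 ± 0.16 at day 2 and 0.14 ± 0.16 at day 6 against day 0. The other 14 had at most 16 counts in a library. Among genes of ligand processing, *Porcn*, the enzyme that adds the lipid to Wnt proteins, rose by 3.06 ± 0.11 (log2, day 2 against day 0) and 1.85 ± 0.11 (day 6 against day 0). Between days 2 and 6 it fell by 1.21. Its lowest, median and highest levels were 1.64, 2.68 and 3.61 CPM at day 0 and 12.02, 21.5 and 33.5 CPM at day 2. *Wls*, the carrier that takes Wnt proteins to the cell surface, changed by -0.78 and -0.88 on the log2 scale.

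The counts by role are to be read against all genes tested, of which 73.3% were called at day 2 and 68.3% at day 6 against day 0, in near equal parts higher and lower. Of 8 tested Frizzled receptor genes, 5 rose and 2 fell by day 2, and 5 rose and 3 fell by day 6. *Fzd4* rose by 1.17 ± 0.17 and 2.25 ± 0.17 at days 2 and 6, with medians of 7.87, 18.7 and 42.4 CPM over the 3 days. *Fzd2* changed by -2.68 and -1.56 on the log2 scale. Between days 2 and 6 *Fzd2* rose by 1.11 ± 0.13 and *Fzd7* fell by 0.86. Among co-receptors *Lrp5*, a partner of the Frizzled receptors, rose by 1.98 ± 0.23 and 2.24 ± 0.23, and *Ptk7* changed by -1.59 and -1.97. *Ror2*, a receptor of Wnt5a, fell by 0.86 between days 2 and 6. Of the R-spondins, which amplify Wnt signals, *Rspo2* changed by -6.27 and -5.55 on the log2 scale, from a median of 23.8 CPM at day 0 to 0.299 and 0.479 CPM. *Lgr4*, an R-spondin receptor gene, rose by 1.29 ± 0.10 at day 2 and fell by 1.23 between days 2 and 6. The only other secreted antagonist gene that passed was *Dkk2*, named after its values were seen. Its median was 0.536 CPM at day 0, and it reached at most 0.0650 CPM in any library of day 2. At day 0 it ran from 0 to 5.21 CPM. The log2 difference of clone 66 against clone 48 at day 0 was -5.39, so this median joins clones at unlike levels. At day 6 *Dkk2* reached at most 0.444 CPM, so it passed the filter on low counts through its high libraries of day 0. Its differences are therefore a description only, although the counts of the list include it.

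Of 12 genes of the relay and beta-catenin turnover, 3 rose and 6 fell by day 2, of which *Csnk1a1*, a kinase gene of beta-catenin turnover, rose by 0.64 and *Dvl2* fell by 1.35 on the log2 scale. By day 6, 5 of these genes rose and 5 fell, of which *Amer1* rose by 0.77 and *Dvl2* fell by 0.80. Between days 2 and 6 *Amer1* rose by 0.85 and *Csnk1a1* fell by 0.28. Of 12 nuclear partners, 3 rose and 7 fell by day 2, and 4 rose and 2 fell by day 6. The co-repressor genes *Tle3* and *Tle2* moved apart, with log2 changes of 1.53 ± 0.19 and -3.81 ± 0.16 by day 2 and 1.33 and -3.54 by day 6. Between days 2 and 6 *Bcl9l* rose by 0.86 and *Tle1* fell by 0.81. Of 6 widely used target genes, 1 rose and 4 fell by day 2, and 2 rose and 4 fell by day 6. *Myc* rose by 2.13 ± 0.26 at day 2 and 1.94 at day 6. The other gene that rose by day 6 was *Axin2*, named after its values were seen. It had medians of 0.392, 0.591 and 2.46 CPM over the 3 days. Its lowest library of day 6 (1.83 CPM) was above its highest of day 0 (0.97 CPM). *Ccn5* fell by 4.76 on the log2 scale at day 2, and *Ccn4* fell by 4.24 at day 6. Between days 2 and 6 *Ccn5* rose by 1.27 and *Ccn4* fell by 2.61. Genes of this kind answer to many signals besides Wnt ligands. Between genotypes 0 of the 53 tested genes of the list were called on any day by edgeR or DESeq2, and 0 had an unadjusted p-value under 0.05 in the edgeR fit. The clones differed in 23 genes of the list at day 0 (12 higher and 11 lower in clone 66), in 21 at day 2 (10 and 11) and in 17 at day 6 (8 and 9). That was 43.4%, 39.6% and 32.1% of the list, against 23.7%, 30.0% and 26.2% of all genes tested. With same-numbered pairs summed, 15, 13 and 8 of the 53 genes were called, and 12.1%, 17.8% and 14.2% of all genes. In that fit the share of the list at day 6 was near the share of all genes. Without replicate 2 of clone 66 the counts at days 0 and 6 were 15 and 10, in a fit whose share of all genes is not given here.

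**Figure D4:**
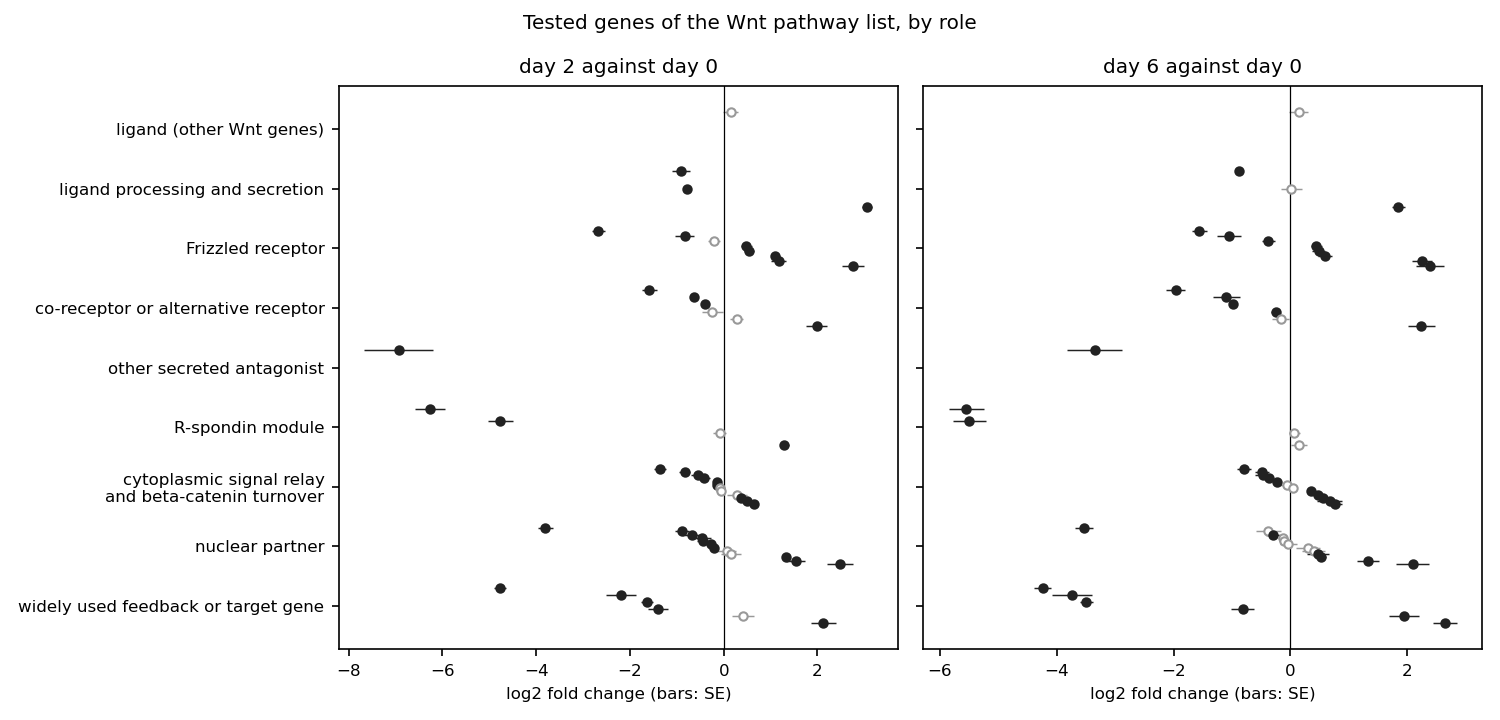
Log2 fold change (x axis, bars are SE) of the 53 tested genes of the Wnt pathway list by role (y axis), at day 2 and at day 6 against day 0. Filled points passed an adjusted p-value under 0.05 and open points did not, with 15 genes rising and 27 falling at day 2.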

How the data were processed

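The authors aligned paired-end reads of 36 stranded total RNA libraries with STAR 2.7.0d, counted read pairs on GENCODE M21 exons with featureCounts 1.6.2 without using strand, and deposited the counts per gene without normalization. Multi-gene and multi-mapping pairs were left out, so overlapping genes are uncertain. Groups came from the sample labels. The series text calls the 3 replicates technical and the paper independent, so p-values may measure technical spread alone. Replicates differed by more than sampling noise (chi-square per degree of freedom at least 12.02).

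Counts were scaled by TMM, filtered with filterByExpr and tested with the quasi-likelihood test of edgeR 4.0.16 (R 4.3.3) with terms for genotype and day and for clone. Clone contrasts used a coefficient for each clone, genotype and day. P-values were Benjamini-Hochberg adjusted over 16723 genes. Same-numbered *Rxra*WT and *Rxra*SA libraries deviated together (r = 0.176 to 0.930 over 18 pairs), so numbers were taken as pairs. Log2 CPM used a prior count of 2. Intervals of fold changes are 95% normal intervals and those of count ratios are exact binomial intervals covering counting error only. Alternatives were RLE factors, library size, other filters, DESeq2 1.42.0, other edgeR tests, replicate blocks, same-numbered pairs summed (edgeR, chosen after seeing the data), single clones and libraries left out.

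The genes, lists and rules were chosen with earlier results of these data known. Named were all 10 genes and the 5 genes most correlated with *Sfrp2*. Pathway genes named were those of each role with the largest rise and fall between days. They were taken among genes with an adjusted p-value under 0.05 and an average log2 CPM of at least 1. *Wnt2b*, *Dkk2* and *Axin2* were named outside this rule.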

Additional observations from a re-analysis of the deposited data

Results flagged for a closer look

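The change of *Sfrp2* from day 0 to day 6 differed between the clones, by -1.85 (log2, clone 66 against clone 48, adjusted p = 0.0109), in a test of the difference itself. Clone and pool cannot be told apart, and the call was lost without replicate 2 of clone 66. *Dkk3* in *Rxra*WT libraries of day 0 had 1 library far above the other 5. It was replicate 3 of clone 66 at 0.806 CPM (21 counts), against 0.424 CPM in the next. Of 29 groups of 6 libraries examined this was the only one, where chance gives about 1 in 20.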

How the results depend on the processing

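Between genotypes no alternative called any of the 10 genes or of the pathway list that it tested. *Wnt5a* was never tested, and *Wnt6*, *Wnt10a* and *Sfrp1* were tested in the fit without the filter alone. The calls of *Sfrp2* between clones at days 2 and 6 and of *Wnt10b* at day 0 held under all 15 alternatives, one of which, same-numbered pairs summed as a replicate block, was chosen after seeing the data. Causes of the changes below were not tested. Members called between days 2 and 6 numbered 3 (*Sfrp2*, *Sfrp4* and *Wnt10b*), but 5 without the filter. *Sfrp4* and *Wnt10b* had passed the filter through the days named above. In clone 66 alone only *Sfrp5* was called. It had 10 to 13 counts per library of that clone at day 2 and 0 to 5 at day 6. The filter thus admitted it through day 2, and this call is a description only. Between clones at day 0, 1 member was called, but 2 without the filter. For the clones' change from day 0 to day 2, 1 in place of 0 was called with library size alone, without the filter, with DESeq2 and with the replicate block, and 0 to 1 with a replicate left out. For that from day 0 to day 6 the range was 0 to 1. Of all genes, 62.0% were called between days 2 and 6 in the main fit and 32.4% without the filter. Between clones at day 0 these shares were 23.7% and 9.28%. For the clones' change from day 0 to day 2 they were 6.84% and 2.17%. The *Sfrp2* and *Tcf7l2* calls that the replicate block added are given above, and it changed no other call of the 5 genes that passed the filter.

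Pathway genes called between clones numbered 15, 13 and 8 at days 0, 2 and 6 with same-numbered pairs summed, in place of 23, 21 and 17. They ranged from 15 to 23 at day 0 and 10 to 21 at day 6 with a replicate left out. For the change from day 0 to day 2 they numbered 6, but 12 with the replicate block and 3 to 7 with a replicate left out. From day 0 to day 6, 5 were called, but 3 with library size alone and 2 to 5 with a replicate left out. From day 2 to day 6, 2 were called, but 1 with RLE factors and 1 with library size. There were 0 without the filter, 6 with the replicate block and 0 to 2 with a replicate left out. The share of all genes called also moved with the fit. For the change from day 0 to day 2 it was 6.84% in the main fit, 2.17% without the filter and 8.38% with DESeq2. From day 0 to day 6 it was 3.85%, against 3.48% with library size. From day 2 to day 6 it was 6.18%, 6.03% with RLE factors, 5.69% with library size and 2.06% without the filter. Without replicate 1 of clone 48 these shares were 7.87%, 2.16% and 8.37%. Between clones that fit called 18.3% of all genes at day 0 and 20.5% at day 6, against 23.7% and 26.2% in the main fit. For the replicate block and the other left-out replicates no share is given. Those counts cannot tell a change of the list from one of all genes.

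Directions turned for 2 kinds of values, those against day 0, which carry no test, and others that were not called. *Sfrp4* at day 6 against day 0 was 0.17 in clone 48 alone and -0.23 to 0.10 with a replicate left out. *Tcf7l2* at day 6 against day 0 was -0.025 with library size alone. *Dkk3* between days 2 and 6 was -0.16 with clone-specific coefficients and -0.10 to 0.46 with a replicate left out. *Sfrp2* between genotypes at day 0 was -0.0063 with blocks within the day, -0.11 in clone 48 alone, and -0.078 to 0.21 with a replicate left out. Low counts limit *Wnt6*, *Wnt10a*, *Sfrp1* and *Sfrp5*.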
